A study of Homo sapiens with 6 samples.

Results

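The 10 genes described here encode enzymes that reduce carbonyl groups to alcohols, among them those known to reduce the carbonyl group of anthracyclines, and their close relatives. They were chosen by gene symbol from the 58735 genes of the count table: 7 aldo-keto reductases (AKR1A1, AKR1B1, AKR1B10, AKR1C1, AKR1C2, AKR1C3 and AKR7A2) and 3 carbonyl reductases of the short-chain dehydrogenase family (CBR1, CBR3 and CBR4). RNA was sequenced from MDA-MB-231 cells, a triple-negative breast cancer line, and from Adriamycin-resistant (ADRr) cells derived from them. The labels give the parent cells as WT and the resistant cells as ADR resistant, with 3 libraries in each group, and both carry the same cell line name. Adriamycin is the trade name of doxorubicin, an anthracycline. According to the study's methods, the resistant cells came out of stepwise drug exposure followed by cloning through limiting dilution. The ADRr libraries may therefore stand for a single clone, and whether the drug was present at harvest is not given in the sources used here. Nothing in the labels says that the libraries came from separate cultures, so p-values measure only the spread between these libraries, which may be technical.

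Anthracyclines kill cells mainly by poisoning topoisomerase II and by redox cycling of their quinone. Reduction of the side-chain ketone turns doxorubicin into doxorubicinol, an alcohol that is a weaker poison for tumor cells and is linked to cardiotoxicity. CBR1 is regarded as the main cytosolic enzyme of this step, and AKR1A1 and AKR1C3 are among the aldo-keto reductases that share it. All of these enzymes draw their hydride from NADPH, and each also has substrates of its own, such as glucose, steroids, prostaglandins and aldehydes from lipid peroxidation. The comparison of ADRr with parent cells addresses how the RNA of these enzymes differs between the resistant and the parent cells. RNA levels do not measure enzyme activity or drug metabolites.

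The AKR1C genes lie side by side on chromosome 10 and are so alike that reads can be hard to assign, and they hold the largest change, so their sequences are shown first. Over the 972 coding bases, AKR1C1 and AKR1C2 were 98.0% identical, with 19 differences, whereas AKR1C3 was 91.5% identical to AKR1C1 and 91.0% to AKR1C2. The stretch below is bases 73 to 162 of each coding sequence, read from GENCODE 29 transcripts (GRCh38), and its 19 capitals mark the positions at which the 3 genes are not all the same.
AKR1C1: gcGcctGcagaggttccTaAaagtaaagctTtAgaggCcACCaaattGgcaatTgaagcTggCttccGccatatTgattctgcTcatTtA
AKR1C2: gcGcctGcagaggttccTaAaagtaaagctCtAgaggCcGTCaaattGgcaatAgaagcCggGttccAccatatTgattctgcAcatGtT
AKR1C3: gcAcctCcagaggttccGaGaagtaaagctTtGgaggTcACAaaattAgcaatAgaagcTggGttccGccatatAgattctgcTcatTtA
This stretch was chosen because AKR1C1 and AKR1C2 differ most within it, and it holds 10 of their 19 differences. It is therefore not typical of the 972 coding bases, over most of which they are harder to tell apart. Of all 150-base windows (the read length) in the main transcript, 11.3% of those of AKR1C1, 21.2% of those of AKR1C2 and 1.33% of those of AKR1C3 were also present in another AKR1C gene. None of the windows of the other 7 genes was found in another gene. The transcripts used for AKR1C1 and AKR1C2 are 6705 and 3756 bases long, of which 972 are coding, so these percentages depend on long non-coding sequence. In number, 743 windows of AKR1C1 and 765 of AKR1C2 were shared. Where they lie in the transcripts was not examined, and in a shorter transcript they could be a larger share. How the counting treated reads with several matches is not given in the sources used here. The split between AKR1C1 and AKR1C2 is therefore uncertain, to an extent that was not measured.

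The promoters of AKR1C1 and AKR1C2 were also near copies of each other, with 288 of 296 aligned bases identical (97.3%). They are shown from 250 bases before to 50 after the RefSeq start (GRCh38.p14), AKR1C1 at chr10:4963165-4963464 on the plus strand and AKR1C2 at chr10:5003808-5004107 on the minus strand. The 12 capitals in each mark bases that differ or have no partner in the alignment.
AKR1C1: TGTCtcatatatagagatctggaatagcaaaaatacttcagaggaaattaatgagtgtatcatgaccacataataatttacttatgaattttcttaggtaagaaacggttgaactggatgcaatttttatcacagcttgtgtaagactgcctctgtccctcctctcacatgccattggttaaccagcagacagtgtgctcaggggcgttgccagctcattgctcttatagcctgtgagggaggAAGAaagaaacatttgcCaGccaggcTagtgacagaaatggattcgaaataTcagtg
AKR1C2: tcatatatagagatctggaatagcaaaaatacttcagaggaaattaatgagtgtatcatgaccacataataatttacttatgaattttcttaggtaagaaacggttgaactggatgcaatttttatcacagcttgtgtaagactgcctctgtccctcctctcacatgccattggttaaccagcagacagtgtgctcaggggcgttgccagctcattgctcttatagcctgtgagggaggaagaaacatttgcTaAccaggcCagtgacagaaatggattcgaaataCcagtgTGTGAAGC
The promoter of AKR1B1, the gene with the largest decrease among the 8 tested, follows as a contrast (chr7:134459051-134459350, minus strand), and that of AKR7A2 (chr1:19312097-19312396, minus strand) with capitals at matches to the antioxidant response element core TGACNNNGC, the motif bound by NRF2.
AKR1B1: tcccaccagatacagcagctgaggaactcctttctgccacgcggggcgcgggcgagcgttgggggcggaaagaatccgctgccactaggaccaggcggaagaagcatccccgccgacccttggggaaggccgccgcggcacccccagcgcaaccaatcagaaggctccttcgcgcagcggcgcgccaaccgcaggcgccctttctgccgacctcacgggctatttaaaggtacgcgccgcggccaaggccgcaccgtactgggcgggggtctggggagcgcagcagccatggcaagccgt
AKR7A2: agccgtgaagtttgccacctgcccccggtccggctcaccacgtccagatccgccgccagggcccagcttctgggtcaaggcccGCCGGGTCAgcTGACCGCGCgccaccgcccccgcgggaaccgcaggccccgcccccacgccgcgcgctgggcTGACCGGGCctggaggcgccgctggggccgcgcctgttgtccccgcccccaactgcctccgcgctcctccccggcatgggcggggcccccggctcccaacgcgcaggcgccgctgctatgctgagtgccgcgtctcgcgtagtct
The motif was searched on both strands and no other motif was searched. AKR7A2, whose promoter was chosen for display after the search, held it at -167, -156 and -95 from its start, and CBR1 (chr21:36069774-36070073, plus strand) held it once, at -159. It was not among the letters of the promoters of AKR1A1, AKR1B1, AKR1C1, AKR1C2, AKR1C3 and CBR4. Of 35116 RefSeq promoters of this length, 13.3% held it, against 3 of the 11 listed promoters of the reductases. These 3 belong to 2 of the 8 reductase genes with a listed promoter. AKR7A2 has a pair of listed starts that are 2 bases apart and hold the same matches. A match is a description of letters and says nothing of binding.

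The libraries held 15983985 to 18272314 counts, so the limit that an observed 0 sets is 3 counts, which is 0.164 to 0.188 CPM (counts relative to a library's total) and covers counting error only. The scaling factors of edgeR's TMM method lay between 0.987 and 1.01, so normalized counts are close to raw counts brought to a common depth. All 9 genes listed as typical of MDA-MB-231 cells were expressed (1 called higher and 5 lower in ADRr cells), while ESR1 had at most 1 count in a library and PGR had none. ERBB2, the other receptor gene, was expressed, with 1785 to 2303 counts in parent and 882 to 905 in ADRr libraries. It was called lower in ADRr cells, at a log2 fold change of -1.24. Marker lists of other cells also moved. Summed over 9 fibroblast markers, the level was 162.5 to 165.5 CPM in parent and 28.6 to 31.9 CPM in ADRr libraries. All 4 tested genes were called lower and DCN was at 0 in all libraries. COL1A2 fell from 1175 to 6.66 and PDGFRB from 1074 to 143.6 mean normalized counts. Over 9 luminal markers it was 262.3 to 301.8 and 341.8 to 356.1 CPM, with 2 of 5 tested genes called higher, 2 lower and AGR2 at 0. Over 10 leukocyte markers the level was 7.14 to 10.5 CPM in parent and 10.9 to 12.8 CPM in ADRr libraries. Of 2 tested genes, CORO1A was called higher (1.27) and CD14 was not called (-0.16), and TYROBP was at 0. The part of these shifts in the results on the reductases was not tested. Since these are bulk samples, a change in RNA per cell and a change in the mix of cells cannot be told apart.

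Of the 10 reductases, 8 passed the filter on low counts, and 5 of them were called different between ADRr and parent cells. A gene was called at a Benjamini-Hochberg adjusted p of 0.05 or less in edgeR's quasi-likelihood test together with a change of 1.2-fold or more. AKR1C1, AKR7A2 and AKR1A1 were higher in ADRr cells and AKR1B1 and CBR4 were lower. Among all 15242 genes tested, 29.2% were called higher and 29.6% lower, so 3 and 2 of 8 are shares of the size seen in any genes. The ADRr libraries were all above the parent libraries for 4 of the 8, against 34.5% of all genes tested, and all below them for 2, against 34.7%. The median log2 fold change of the 8 was 0.11, that of all genes tested -0.01. Both directions occurred among the aldo-keto reductases.

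**Figure D1:**
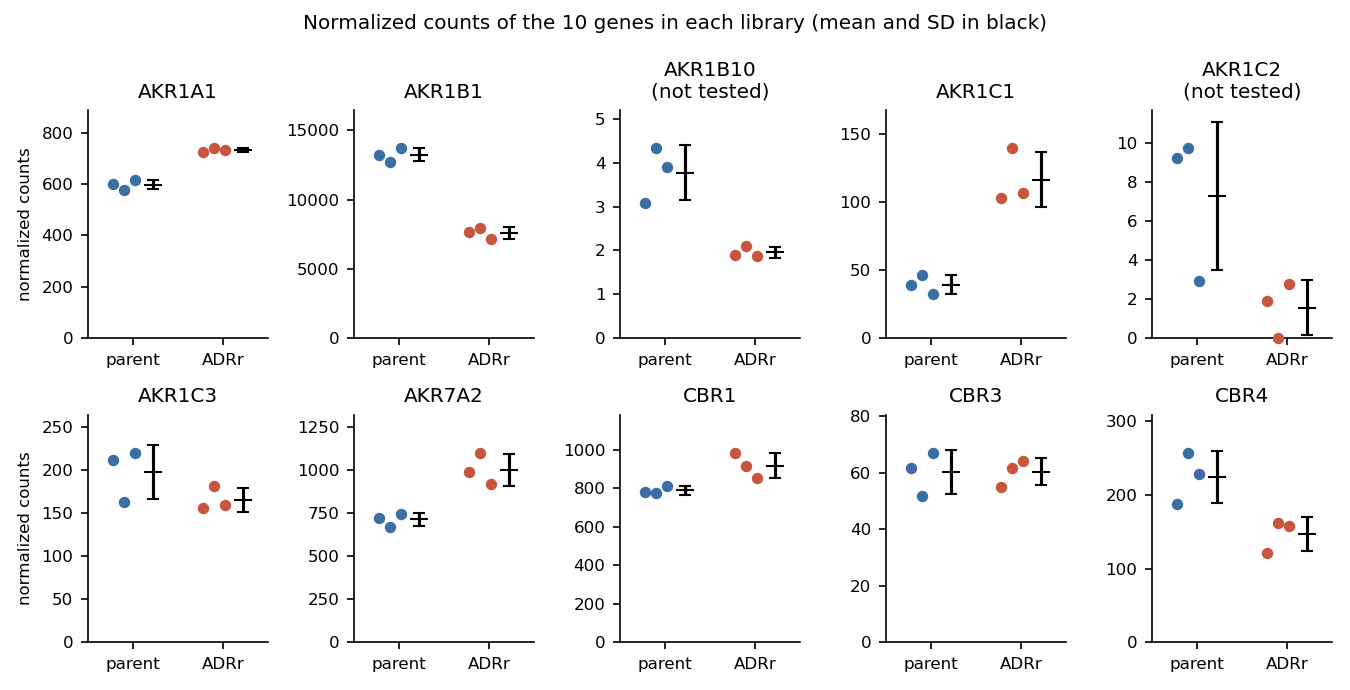
Normalized counts (linear axes from 0, a separate scale for each gene) of the 10 reductase genes in the 3 parent (blue) and 3 ADRr (red) libraries, with the group mean and SD in black. The groups stand apart for AKR1A1, AKR1B1, AKR1C1, AKR7A2, CBR1 and CBR4 and overlap for AKR1C3 and CBR3, and AKR1B10 and AKR1C2 are at a few counts and were not tested.

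AKR1C1 (ENSG00000187134, chromosome 10, 4963253 to 4983283) encodes the 20-alpha-hydroxysteroid dehydrogenase that inactivates progesterone. It had 39.1, 46.5 and 32.1 normalized counts in parent replicates 1 to 3 and 102.8, 139.2 and 106.5 in ADRr replicates 1 to 3. Every ADRr library was above every parent library by a wide margin. The mean rose 2.96-fold, from 39.3 ± 7.19 to 116.1 ± 20 (SD, n = 3) (log2 fold change 1.56, SE 0.206, edgeR adjusted p = 6.3e-07). This was the largest change among the 8 reductases tested, and it ranked 672 among all genes tested by size of increase. On the log2(FPKM + 1) scale, which understates the change of low genes, the difference was 0.48 and still called. AKR1C1 remained a gene of low level, at 0.256 ± 0.0470 FPKM in parent cells and 0.760 ± 0.129 FPKM in ADRr cells (fragments scaled by gene length and by library total). Its gene length, 8765 bases, was the longest of the 10, which lowers its FPKM.

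AKR1C2 (ENSG00000151632, chromosome 10, 4987400 to 5018031), which inactivates dihydrotestosterone, was barely present. It had 9, 9 and 3 raw counts in parent cells and 2, 0 and 3 in ADRr cells, and was not tested. The summed counts were 21 and 5, a ratio of 0.23 per total count (95% exact interval 0.0679 to 0.628, counting error only), and the interval lies below 1. Fitted without the filter on low counts, its adjusted p was 0.062 in edgeR and 0.12 in DESeq2.

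AKR1C3 (ENSG00000196139, chromosome 10, 5035354 to 5107686) makes testosterone from androstenedione and prostaglandin F from prostaglandin D, and reduces doxorubicin. It had 211.0, 162.3 and 220.1 normalized counts in parent cells and 156.1, 181.1 and 158.8 in ADRr cells. The groups overlapped because parent replicate 2 lay within the ADRr range. The means were 197.8 ± 31.1 and 165.3 ± 13.7 (SD, n = 3) (log2 fold change -0.26, SE 0.133, edgeR adjusted p = 0.087), which is not a call. Without parent replicate 2 it was called lower, at -0.39 (adjusted p = 0.0096).

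Taken as 1 feature, the 3 AKR1C genes had 259.3, 218.5 and 255.2 normalized counts in parent cells and 260.7, 320.2 and 268.0 in ADRr cells. This sum does not depend on how the counted reads were split among the copies. Reads left out of the counting because they had several matches would be missing from it. The difference was 0.21 on the log2 scale (SE 0.112, edgeR adjusted p = 0.11), not past the threshold, although every ADRr library was above every parent library. The composition changed more than the sum. AKR1C1 held 15.1, 21.3 and 12.6% of the AKR1C counts in parent cells and 39.4, 43.5 and 39.7% in ADRr cells. On the FPKM scale, which divides by gene length, the AKR1C sum was 2.82 ± 0.330 and 2.87 ± 0.286 and the groups overlapped.

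Other genes in and beside the AKR1C cluster were also read. The pseudogene AKR1C7P had 7, 7 and 10 counts in parent cells and 23, 12 and 28 in ADRr cells, and was called higher (log2 fold change 1.30, adjusted p = 0.011, edgeR). AKR1C4, the liver enzyme of the cluster, had 0 counts in all parent libraries and 1, 1 and 2 in ADRr libraries. AKR1E2, at the edge of the cluster, had 106, 103 and 126 counts in parent cells and 97, 89 and 105 in ADRr cells and was not called (-0.28, adjusted p = 0.12).

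AKR1B1 (ENSG00000085662, chromosome 7, 134442350 to 134459284) encodes aldose reductase, which makes sorbitol from glucose in the polyol pathway and also reduces lipid aldehydes and prostaglandin H. It was by far the most abundant of the 10, with 13261, 12758 and 13716 normalized counts in parent cells and 7696, 7984 and 7152 in ADRr cells. The lowest parent library was well above the highest ADRr library. The mean fell 1.74-fold, from 13245 ± 478.9 to 7611 ± 422.5 (SD, n = 3) (log2 fold change -0.80, SE 0.05, edgeR adjusted p = 2.8e-12). In FPKM it was 206.9 ± 7.32 and 119.2 ± 6.30, and it remained the first of the 10 in level in both groups.

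AKR1B10 (ENSG00000198074, chromosome 7, 134527592 to 134541408), a retinal reductase of gut epithelium that lies next to AKR1B1 and is 75.8% identical to it in coding sequence, gave almost no reads. Its raw counts were 3, 4 and 4 in parent cells and 2, 2 and 2 in ADRr cells, 11 and 6 in all. The ratio of 0.528 per total count had a 95% exact interval of 0.16 to 1.56, so no difference was detectable at this depth. AKR1B15, the next gene of the cluster, had 0 counts in every library. Among the AKR1B genes, AKR1B1 alone had enough counts for a test.

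AKR7A2 (ENSG00000053371, chromosome 1, 19303965 to 19312146), the aflatoxin aldehyde reductase, also reduces succinic semialdehyde. It had 722.4, 672.9 and 748.0 normalized counts in parent cells and 988.7, 1103 and 919.0 in ADRr cells. The groups did not overlap. The mean rose 1.40-fold, from 714.4 ± 38.2 to 1004 ± 92.9 (SD, n = 3) (log2 fold change 0.49, SE 0.0769, edgeR adjusted p = 7.5e-06), and from 22.9 ± 1.22 to 32.3 ± 2.90 FPKM.

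AKR1A1 (ENSG00000117448, chromosome 1, 45550543 to 45570049), the broad-specificity aldehyde reductase, had 601.0, 577.7 and 614.6 normalized counts in parent cells and 725.1, 738.9 and 733.1 in ADRr cells. The libraries of each group lay close together, and the groups were apart. The mean rose 1.22-fold, from 597.7 ± 18.7 to 732.4 ± 6.89 (SD, n = 3) (log2 fold change 0.29, SE 0.0731, edgeR adjusted p = 0.0013). This change is just above the fold required for a call, and without parent replicate 2 it was 0.26 (adjusted p = 0.0033) and no longer a call.

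CBR1 (ENSG00000159228, chromosome 21, 36069941 to 36073166), the main doxorubicin reductase of the cytosol, had 780.0, 772.4 and 813.3 normalized counts in parent cells and 984.0, 912.6 and 854.6 in ADRr cells. All ADRr libraries were above all parent libraries, though ADRr replicate 3 came close to them. The means were 788.6 ± 21.7 and 917.0 ± 64.8 (SD, n = 3) (log2 fold change 0.22, SE 0.0719, edgeR adjusted p = 0.011). The difference passed the adjusted p but not the required fold, and was not called. Without ADRr replicate 3 it was 0.27 (adjusted p = 0.0087) and would have been called higher, whereas without ADRr replicate 1 it was 0.17 (adjusted p = 0.081) and no longer passed the adjusted p.

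CBR3 (ENSG00000159231, chromosome 21, 36134912 to 36146566) is the neighbor and close relative of CBR1, with 77.0% identity of coding sequence and lower activity on anthracyclines. It had 61.7, 51.9 and 67.2 normalized counts in parent cells and 55.2, 61.7 and 64.4 in ADRr cells. The groups lay on top of each other. The means were 60.3 ± 7.74 and 60.5 ± 4.76 (SD, n = 3), a difference of 0.00 on the log2 scale with an SE of 0.21 (edgeR adjusted p = 1), so a small change in either direction could not have been seen.

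CBR4 (ENSG00000145439, chromosome 4, 168863770 to 169010275) is a mitochondrial quinone reductase that, together with HSD17B8, forms the ketoacyl reductase of mitochondrial fatty acid synthesis. It had 187.3, 257.5 and 227.9 normalized counts in parent cells and 120.9, 162.2 and 157.8 in ADRr cells. The highest ADRr library was below the lowest parent library, with a wide spread in both groups. The mean fell from 224.2 ± 35.2 to 147.0 ± 22.7 (SD, n = 3) (log2 fold change -0.61, SE 0.141, edgeR adjusted p = 6.4e-04). HSD17B8, named here as its partner after its values were seen, was not called (-0.37, adjusted p = 0.18).

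Parts of the CBR genes overlap transcripts of the opposite strand, and the sources used here do not say whether counting used the strand. Of the exon bases of CBR3, 42.2% also belong to CBR3-AS1, which had 10, 14 and 15 counts in parent cells and 16, 14 and 11 in ADRr cells. Of those of CBR1, 18.9% belong to AP000688.1, with at most 2 counts in any library. CBR4 shares 2.11% with PALLD, which had 4449 to 4684 counts in parent and 1725 to 1924 in ADRr libraries (log2 fold change -1.37), many more than CBR4 itself. The part of PALLD in the counts of CBR4 was not tested.

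Levels can be compared between genes in FPKM. In parent cells the order was AKR1B1 (206.9), AKR7A2 (22.9), CBR1 (18.4) and AKR1A1 (10.9), each apart from the next beyond the spread of the libraries. CBR3 (2.95 ± 0.377), CBR4 (2.51 ± 0.389) and AKR1C3 (2.49 ± 0.392) followed and did not differ beyond their spread, and AKR1C1, AKR1B10 and AKR1C2 were all below 1 FPKM. In ADRr cells the order was the same except that AKR1C3 (2.09 ± 0.168) stood above CBR4 (1.65 ± 0.254). FPKM uses the length of all exons of a gene. With the length of 1 coding transcript instead, CBR1 came before AKR7A2 in parent cells, and AKR1C3 came before CBR3 and CBR4 in both groups.

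The summed FPKM of the 10 genes was 268.6, 257.3 and 276.7 in parent cells and 195.6, 203.1 and 183.4 in ADRr cells. The groups did not overlap, and the mean changed from 267.5 ± 9.76 to 194.0 ± 9.96 (SD, n = 3), or by -27.5%. AKR1B1 held the largest part, with 77.3% of the sum in parent cells and 61.5% in ADRr cells. Without AKR1B1 the direction turned, with 60.8, 58.2 and 63.1 FPKM in parent cells and 75.0, 78.3 and 71.0 in ADRr cells, a change of 23.2%. The share of AKR7A2 in the full sum was 8.57% and 16.6%, that of CBR1 6.88% and 11.1%, and that of AKR1A1 4.09% and 6.95%. These 3 genes together went from 52.3 ± 1.99 to 67.2 ± 3.61 FPKM. CBR1, CBR3 and CBR4 summed to 23.9 ± 0.774 and 26.1 ± 1.05 FPKM. AKR1C1, for all its change in fold, went from 0.0962% to 0.391% of the sum. This share is lowered by its gene length of 8765 bases, against 4532 for AKR1C3 and 1169 for CBR3. In ADRr cells AKR1C1 had a mean of 116.1 normalized counts, AKR1C3 165.3 and CBR3 60.5. No test was made of these sums.

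**Figure D2:**
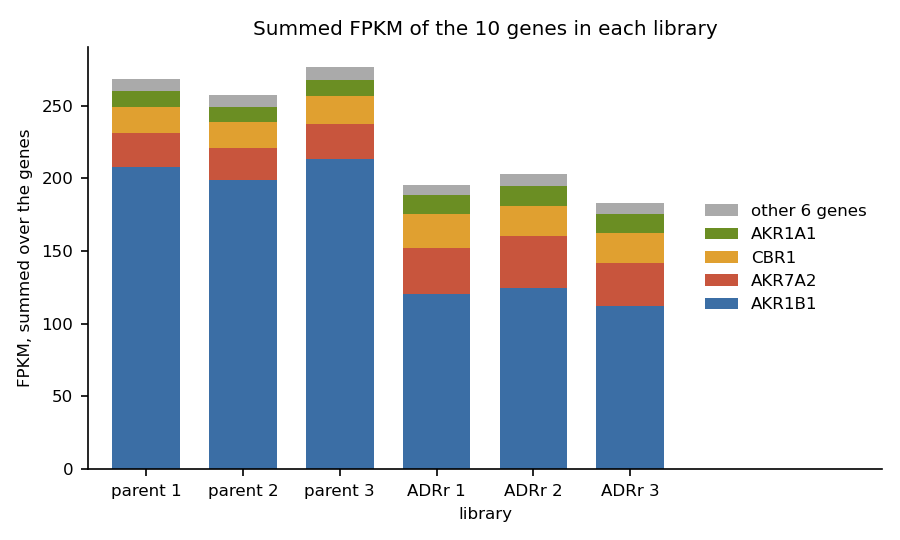
Summed FPKM of the 10 reductase genes (linear axis from 0) in each of the 6 libraries, stacked by gene, with the 6 genes of low level in grey. The ADRr bars reach 183.4 to 203.1 and the parent bars 257.3 to 276.7, and the AKR1B1 segment is shorter in ADRr libraries while the AKR7A2, CBR1 and AKR1A1 segments are taller.

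Several of the reductases lie in regions whose other genes also moved, and the values of these neighbors are given as a description. For each gene the 10 nearest tested genes on either side were taken, leaving out only the 10 reductases described here. AKR1E2 (-0.28) and the pseudogene AKR1C7P (1.30, called higher) were thus counted as neighbors of the AKR1C cluster. CBR3-AS1 (0.00), which overlaps CBR3, was counted for CBR1 and CBR3. Around the AKR1C cluster 15 of these 20 were called higher and 0 lower, with a median log2 fold change of 0.66, against 0.26 for all tested genes of chromosome 10. AKR1C1 was above this median by 0.90 and AKR1C3 differed from it by -0.93. Around CBR1, 15 of 20 neighbors were called higher and 2 lower, with a median of 0.81. On chromosome 21 as a whole, 109 of 158 tested genes (69.0%) were called higher, with a median of 0.70. CBR1 and CBR3, at 0.22 and 0.00, were below the median of their chromosome, and differed from the median of their neighbors by -0.60 and -0.79.

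Around CBR4 most neighbors were lower as well. Of 20, 11 were called lower and 3 higher, and their median of -0.61 was that of CBR4 itself, while chromosome 4 had a median of -0.33 with 252 of 517 tested genes called lower. AKR1B1 differed from its surroundings by -0.71, since its 20 neighbors had a median of -0.08, with 7 called higher and 8 lower. The tested genes nearest to it, named after their values were seen, were lower too: EXOC4 (-0.56) and SLC35B4 (-0.36) on one side, BPGM (-0.92) and CALD1 (-0.85) on the other. On chromosome 1, AKR7A2 and AKR1A1 rose where the median of their neighbors was -0.14 and -0.24. Whether the regional shifts have a part in the values of the reductases was not tested.

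**Figure D3:**
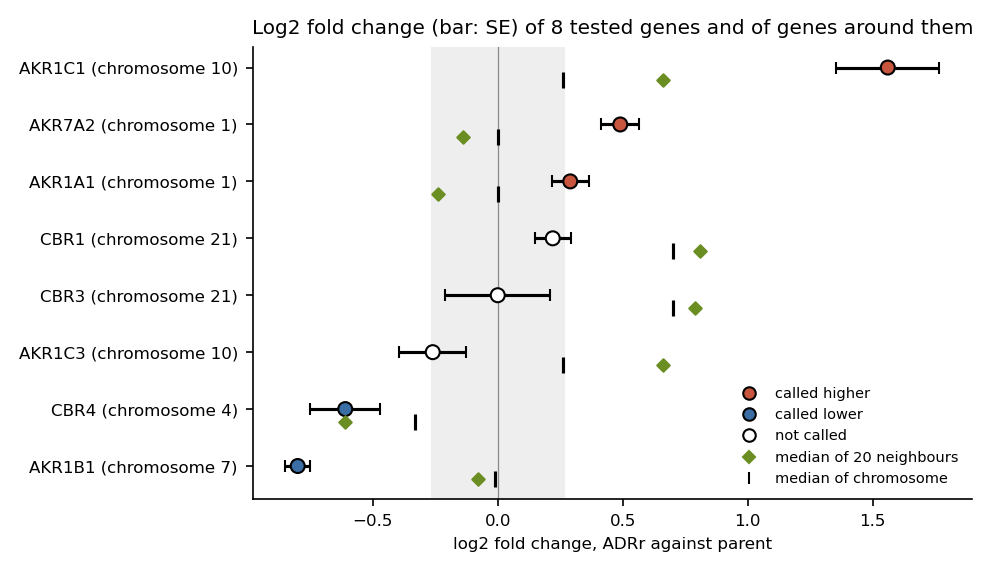
Log2 fold change (ADRr against parent) of the 8 tested reductases with its standard error, filled where called, beside the median of 20 neighboring genes (diamond) and of the chromosome (tick), with the range below the required fold in grey. AKR1C1 is the farthest to the right at 1.56 and AKR1B1 the farthest to the left at -0.80, CBR4 coincides with its neighbors at -0.61, and CBR1 and CBR3 lie to the left of theirs.

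**Figure D4:**
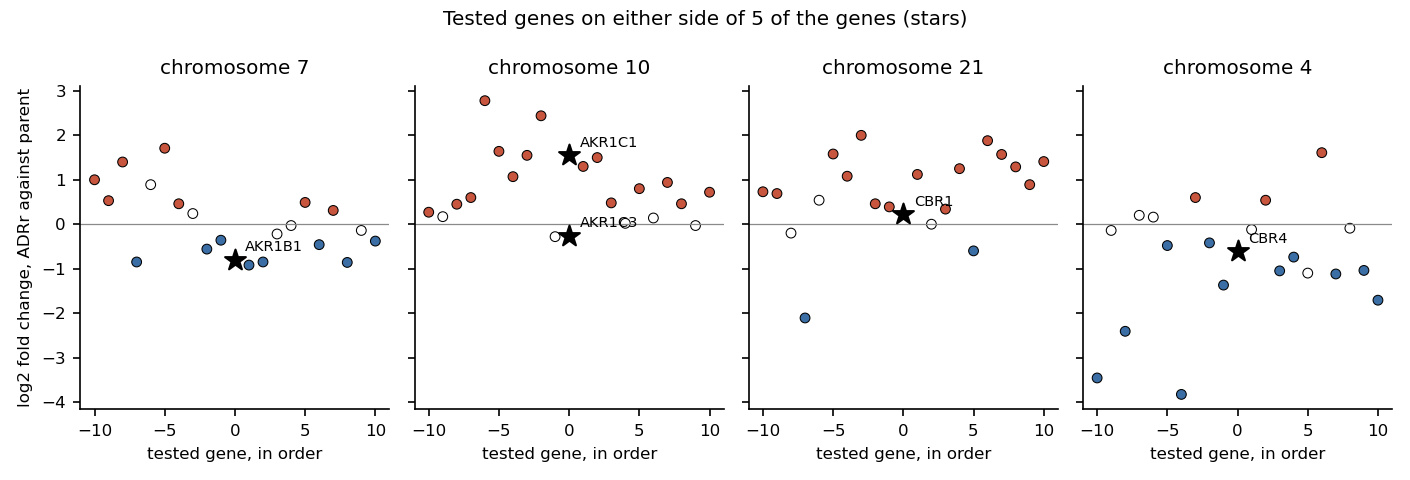
Log2 fold change (ADRr against parent) of the 10 tested genes on each side of AKR1B1, of the AKR1C cluster, of CBR1 and of CBR4, in their order along the chromosome, in red where called higher, blue where called lower and white where not called, with the reductases as stars at position 0. Most neighbors are red for the AKR1C cluster and CBR1 (15 of 20 each) and blue for CBR4 (11 of 20).

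The genes whose pattern over the 6 libraries was most like that of AKR1C1, measured as the root mean square difference of log2 CPM centred on the parent mean, were TRIM66 (0.124), LY96 (0.149) and FUT1 (0.149) among 10627 protein-coding genes with a mean of at least 1 FPKM. Their log2 fold changes were 1.42, 1.64 and 1.53. AKR1C1 itself had a mean of 0.508 FPKM over the 6 libraries. Among all 15242 genes tested, of any type and level, 190 lay within 0.1 of its log2 fold change, AKR1C1 itself included. That count concerns the size of the change alone and not the pattern over the libraries.

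Other enzymes that work beside the reductases were followed in lists of genes written by hand, and read against the 29.2% called higher and 29.6% called lower among all genes. From each list the called genes with the largest changes and at least 100 normalized counts are named. Of 9 other aldo-keto reductases, 3 were tested. KCNAB2 and KCNAB3, which encode beta subunits of potassium channels that keep the aldo-keto reductase fold, were both called higher. KCNAB2 went from 193.6 ± 16.1 to 369.5 ± 4.06 in normalized counts (0.93 on the log2 scale). KCNAB3, of lower level and named after its value was seen, had 0.83.

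Of 29 other short-chain dehydrogenases and reductases, most of carbonyls but some of other bonds, 23 were tested, with 8 called higher, 7 lower and a median log2 fold change of -0.04. DHRS2, a dicarbonyl reductase, rose from 22.1 ± 3.64 to 103.3 ± 9.0 in normalized counts (log2 fold change 2.21), BLVRB, the flavin and biliverdin reductase, from 867.1 ± 132.7 to 2065 ± 89.2 (1.25), and RDH14, a retinol dehydrogenase, by 0.73. DHRS3, which reduces retinal, fell from 320.9 ± 17.7 to 114.1 ± 8.32 (-1.49). PECR, an enoyl reductase of peroxisomes, had -0.84 and DHRS13 had -0.80.

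Quinone reductases and flavoenzymes act on the ring of anthracyclines rather than on the side chain. Of 15 listed, 13 were tested, with 4 called higher, 5 lower and a median of -0.03. CYB5R4 (0.62), POR, the cytochrome P450 reductase (0.57), and MTRR (0.38) were called higher. AOX1, aldehyde oxidase (-1.02), FDXR (-0.67) and CYB5R3, cytochrome b5 reductase (-0.64), were called lower. NQO1, the best known quinone reductase and named after its values were seen, had 2336 ± 40.6 and 2614 ± 81.5 normalized counts, and at 0.16 (adjusted p = 0.0099, edgeR) was below the required fold.

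All 23 listed genes of NADPH supply were tested, with 11 called higher, 6 lower and a median of 0.15. ME2, the mitochondrial malic enzyme, rose from 585.6 ± 56.3 to 1353 ± 36.7 in normalized counts (1.21). MTHFD2, of mitochondrial folate metabolism, rose from 879.3 ± 60.4 to 2020 ± 14.8 (1.2), and ALDH1L1, of cytosolic folate metabolism, had 1.08. IDH2, the mitochondrial NADP isocitrate dehydrogenase, fell from 1001 ± 47.6 to 401.7 ± 6.90 (-1.32), and TKT, transketolase (-0.61), and NNT, the mitochondrial transhydrogenase (-0.56), were also called lower.

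NRF2 is the transcription factor that binds antioxidant response elements, and several aldo-keto reductases are among its known targets. Of 22 genes of its pathway, all tested, 14 were called higher and 1 lower, with a median of 0.66. MAFF, a small MAF protein, rose from 1041 ± 32.9 to 5412 ± 118.1 in normalized counts (2.38), OSGIN1 by 1.55, and SLC7A11, the cystine transporter, by 1.52. CUL3, a ligase subunit that degrades NRF2, was the gene called lower (-0.56). The reductases themselves were kept out of this list.

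The last list held 35 partners of the same enzymes in steroid, prostaglandin and polyol metabolism, of which 24 were tested, with 1 called higher, 11 lower and a median of -0.19. PTGS1, the first enzyme of prostaglandin synthesis, fell from 306.3 ± 40.0 to 83.4 ± 11.7 in normalized counts (-1.87), STS, steroid sulfatase, from 1854 ± 110.7 to 802.7 ± 59.5 (-1.21), and HSD17B4, of peroxisomal oxidation, had -0.98. SORD, which oxidizes the sorbitol made by AKR1B1 and was named after its values were seen, was called lower at -0.37.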

How the data were processed

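RNA-seq libraries of parent (n = 3) and ADRr (n = 3) MDA-MB-231 cells were analysed. The authors deposited raw counts per gene and FPKM values made from them. According to the methods and the submitters' processing notes, polyadenylated RNA was sequenced as 150-base pairs, mapped with HISAT2 2.0.5 to GRCh38 and counted with featureCounts 1.5.0-p3. For the cleaning of reads the notes name fastp, whereas the methods name Novogene Perl scripts. The methods and the labels describe different library kits, and the series text speaks of time points that no label gives, so same-group libraries served as replicates. Strandedness is not given in the sources used here. The deposited FPKM divide each count by gene length and by a read number 0.905 to 3.1% above the library total.

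Counts were tested in R 4.3.3 with edgeR 4.0.16 (filterByExpr, TMM, quasi-likelihood, Benjamini-Hochberg over 15242 genes). DESeq2 1.42.0 and limma 3.58.1 (limma-trend on FPKM) were alternatives. Normalized counts are CPM after TMM scaled to a common library size. The fits were checked on simulated counts. An exact permutation of 3 against 3 libraries cannot give a p below 0.1 and was not used. The alternatives were other scaling, filters, thresholds, a replicate block and each library left out. The members and the gene lists were chosen with earlier results of these data known. List genes were named by a fixed rule (up to 3 called genes per direction whose higher group averaged 100 normalized counts or more), and others are marked where they appear. Proteins were not analysed here, and some list genes are not reported here by name.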

Additional observations from a re-analysis of the deposited data

How the results depend on the processing

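AKR1B1 (-0.83 to -0.76) and AKR7A2 (0.42 to 0.55) kept their direction and call in all 15 alternative fits run for each. A required absolute log2 fold change of 1.2 left 1 gene called higher and 0 called lower, and limma-trend without a filter, on FPKM with a pseudocount of 1, left 1 called lower, where CBR4 had an adjusted p of 0.052. With each library left out in turn, 2 to 4 genes were called higher and 2 to 3 lower. AKR1C1, at 1.56, was called at 1.42 to 1.69 with each library left out, at 1.27 on log2(FPKM + 0.1) and at 0.48 on log2(FPKM + 1), which shrinks the change of low genes by construction. The AKR1C counts taken as 1 feature gave 0.21 (edgeR adjusted p = 0.11), weaker than AKR1C1 and opposite in direction to AKR1C3. Most of these counts were those of AKR1C3, 581 in parent and 507 in ADRr libraries. AKR1C1 had 114 and 355, and AKR1C2, the gene with which it shares windows, had 21 and 5. The 0.21 therefore does not single out the split between AKR1C1 and AKR1C2, and a sum of these alone was not fitted. CBR3 changed sign without a filter (0.00) and without ADRr replicate 2 (-0.01), ADRr replicate 3 (-0.05) or parent replicate 2 (-0.10), and ranged from -0.10 to 0.08 with each library left out, always far from the threshold. The log2 ratio of the summed FPKM was -0.46, and with each library left out -0.50 to -0.42. With AKR1B1 left out, an alternative added after seeing the data, it was 0.30. The length of 1 coding transcript, also added later, gave -0.55. Same-numbered libraries did not deviate together (correlations 0.00735, -0.0213 and -0.0457), so the numbers pair nothing. The fit with a replicate block called 3 reductases higher and 2 lower, and 4406 and 4464 genes in all. Depth limits AKR1B10 and AKR1C2, whose few counts fell below the filter. Among the lists, short-chain dehydrogenases called higher numbered 8, but 4 (filtered) or 5 (unfiltered) by limma-trend at that pseudocount. Steroid, prostaglandin and polyol partners called higher numbered 1, and 0 or 2 under 10 alternatives. Leukocyte markers called higher numbered 1, and 2 with DESeq2 or without a filter.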
